A study of Arabidopsis thaliana with 6 samples.

Results

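The transposable elements (TEs) of chromosome 1 of Arabidopsis thaliana were examined in leaf RNA of wild-type and ddcc plants. They were taken as all entries of the count table whose name begins with AT1TE, which gave 7135 of the 31189 TE entries and of the 62524 entries in all. Both genotypes were of the accession Col-0 and were sampled as leaves at 28 days. Wild type carried no mutation named in the labels, and ddcc carried mutations in DRM1, DRM2, CMT2 and CMT3; the labels name no alleles, no lines and no pooling of plants. Each genotype had 3 libraries of polyadenylated RNA, with 15188586 to 17644256 counts in wild type and 17265251 to 18809306 in ddcc. Nothing in the labels says whether the libraries of a genotype came from separate plants, so p-values measure the spread between these libraries, which may be technical.

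Transposable elements are DNA segments that can copy or move themselves, and in plants most of them are kept silent by DNA methylation and by methylation of histone H3 at lysine 9. In plants cytosines are methylated in CG as well as in non-CG contexts. DRM2, with its relative DRM1, is guided by small RNAs in the pathway called RNA-directed DNA methylation, which mainly serves short elements and the edges of long ones, while CMT2 and CMT3 bind methylated histone H3 and act mostly in the dense heterochromatin around centromeres. The comparison asks which elements give polyadenylated transcripts when these non-CG methyltransferases are mutated.

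Several facts of the libraries bear on the values. Transcripts of DRM2, CMT2 and CMT3 were lower in ddcc, by 1.14, 0.46 and 1.69 on the log2 scale (edgeR adjusted p 4.51e-06, 0.00207 and 1.41e-05), and DRM1 had at most 1 count in any library, so it gave no check. All 5 leaf markers were abundant, with levels that summed to 31421 to 34501 CPM per wild-type library and 26039 to 27060 CPM per ddcc library, and 4 of them were called lower in ddcc, against 12.7% of all features tested; the part of this in the results was not tested. CPM is the count scaled to a common library size with TMM factors. The 5 floral organ markers summed to 0.328 to 0.700 CPM per wild-type library and 0.343 to 0.428 per ddcc library, with AP1 at 0 counts in every library. The 3 seed markers summed to at most 0.292 CPM in any library. In bulk leaf RNA, transcripts in more cells and more transcript per cell cannot be told apart.

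Most chromosome 1 elements gave no reads in either genotype. Of the 7135, 6524 (91.4%) had 0 counts in all 6 libraries and 611 (8.56%) had at least 1 count in some library, against 9.91% of the 24054 TEs of the other chromosomes, 9.6% of all TEs and 41.9% of all entries, genes included. A count of 0 in a library allows up to 3 counts, or 0.156 to 0.197 CPM, and this limit covers counting error only. Reads fell on 183, 189 and 159 elements per wild-type library and on 302, 325 and 320 per ddcc library. Every ddcc library thus showed more elements than every wild-type library. The means were 177 ± 15.9 and 316 ± 12.1 (SD over 3 libraries), a ratio of 1.78 with an exact two-sided permutation p of 0.1, the lowest that 3 libraries against 3 can reach. The ratio was larger among elements with more reads, since 9.33 ± 1.53 elements in wild type and 30.0 ± 2.0 in ddcc had at least 100 counts, a ratio of 3.21 (exact permutation p 0.1).

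Summed counts on chromosome 1 elements were higher in every ddcc library. They numbered 4663, 3984 and 3718 in wild type and 18216, 15291 and 16148 in ddcc. As a share of all counts this came to 0.0251% ± 0.00119 for wild type and 0.0906% ± 0.00553 for ddcc (SD over 3 libraries), 3.62 times as much with no overlap between genotypes (exact permutation p 0.1). Counting error was small against this gap, as the 95% Wilson interval reached up to 0.0272% for the highest wild-type share of 0.0264% and down to 0.0850% for the lowest ddcc share of 0.0864%. Without the 10 chromosome 1 elements with the most counts, the shares were 0.0121% ± 0.000276 and 0.0400% ± 0.00224, a ratio of 3.31.

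The part of all TE counts that came from chromosome 1 was larger in every ddcc library. Of the counts on TEs of all 5 chromosomes, its elements held 13.7%, 11.7% and 14.3% of the wild-type total and 22.6%, 21.6% and 20.2% of the ddcc total, library by library. The genotypes did not overlap, with means of 13.2% ± 1.37 and 21.5% ± 1.18 (exact permutation p 0.1). In comparison, chromosome 1 holds 22.9% of the TE entries. The summed level of the TEs of chromosomes 2 to 5 went from 1675 ± 198 to 3279 ± 116 CPM, a ratio of 1.96, against 3.53 for chromosome 1 (254 ± 15.7 to 896 ± 46.7 CPM). The difference narrowed without the 10 elements of each chromosome with the most counts, where the chromosome 1 part was 22.6% ± 0.334 in wild type and 25.9% ± 0.374 in ddcc (exact permutation p 0.1).

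**Figure D1:**
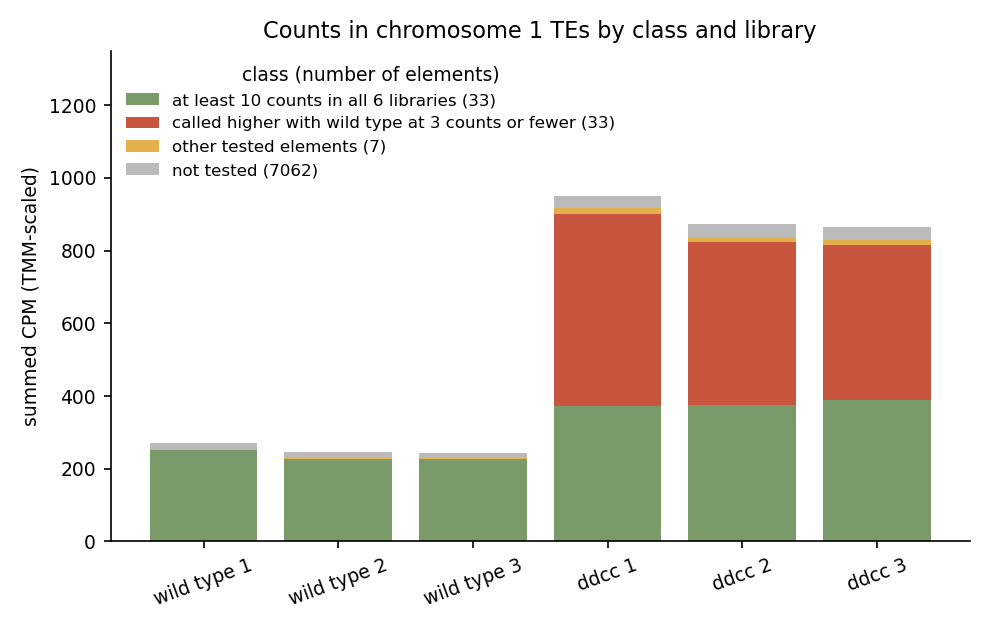
Summed CPM of chromosome 1 TEs in each of the 6 libraries, stacked by class of element with the number of elements in each class. The 33 elements expressed in both genotypes fill most of each wild-type bar, and the 33 elements near 0 counts in wild type form the largest part of each ddcc bar.

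The reads fell into a few classes of elements, shown in the plot of summed CPM by class. In wild type, 33 elements with at least 10 counts in all 6 libraries held 91.9% to 92.9% of the chromosome 1 TE counts of a library. In ddcc the same 33 elements held 39.2% to 45.1%. Another 33 elements, which had 3 counts or fewer in every wild-type library and were called higher, summed to 0.410 ± 0.0504 CPM in the former and 468 ± 53.4 CPM in the latter genotype. These were chosen by their call, so their sum is a description and no test.

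For single elements, genes and TEs were tested in 1 model, with a call at an adjusted p below 0.05. Of the 7135 elements 73 (1.02%) had enough reads to be tested, and the remaining detected 538 had a median of 2 counts over all libraries together. Of the 73, 45 (61.6%) were called higher and 2 (2.74%) lower in ddcc. Among all 18498 genes and TEs tested 15.5% were called higher and 12.7% lower, and among genes alone 14.7% and 12.8%. The shares were 57.8% and 6.45% among all tested TEs, and 56.9% and 7.36% among those of chromosomes 2 to 5. The count of 45 leans on how elements entered the test. The filter on low counts was passed in the ddcc libraries alone by 38 elements, all of which were called higher and had to differ to be tested at all. It was passed in all 6 libraries by 33 elements, of which 7 were called higher, 1 lower and 25 were not called. The remaining 2 were AT1TE71790, which passed in the wild-type libraries alone and was called lower, and AT1TE04840, which passed in a mixture of libraries and was not called. All 45 elements called higher had CPM values that did not overlap between the genotypes. Among all 73 the share was 68.5% in either direction, and among all tested features 43.5%. The share of the 73 includes the 38 elements that passed the filter in ddcc alone, and AT1TE71790. These had to differ to be tested, so the gap between the 2 shares says nothing further about the elements. The 45 were chosen by their call on these libraries, so their lack of overlap is a description and no test.

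Elements gained in ddcc were near or at 0 in wild type. Of the 45 called higher, 33 had 3 counts or fewer in each wild-type library, and 22 of these had no read at all there. For the 22, the level in ddcc was set against 0.197 CPM, which is 3 counts in the smallest wild-type library. This gave bounds from at least 3.85-fold to at least 114-fold higher, with a median of 17.2. The mean level of the 33 in ddcc ran from 0.758 to 122 CPM, with a median of 5.13 CPM. Lengths of the elements were not used here, so CPM values compare genotypes within an element and do not rank elements by transcription.

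AT1TE56390 had the most reads of all chromosome 1 elements in each ddcc library. It had wild-type counts of 1, 1 and 1 and ddcc counts of 2775, 1807 and 2218, which was 15.2%, 11.8% and 13.7% of the chromosome 1 TE counts of those libraries. The ratio was 1989, with a 95% counting interval of 680 to 9649 (adjusted p 5.60e-10 by edgeR). AT1TE36570 went from 3, 0 and 3 counts to 1091, 959 and 1027, a ratio of 450.1 (counting interval 207 to 1227, adjusted p 4.00e-10 by edgeR). Its ddcc libraries were close together, at 55.5 ± 1.14 CPM. AT1TE66380 had wild-type counts of 1, 0 and 0 and ddcc counts of 984, 756 and 929 (ratio 2342, counting interval of 420.1 to 92557, adjusted p 4.27e-10 by edgeR). AT1TE86360 had 1, 0 and 0 against 724, 611 and 663 (ratio 1754, counting interval of 314 to 69296, adjusted p 3.54e-10 by edgeR). These intervals rest on the reads summed over libraries and cover counting error only. Like the other elements with the largest increase described below, these passed the filter in the ddcc libraries alone. Their direction was thus fixed by their entry into the test, and their adjusted p-values add no separate support for it. Set against 3 counts in the smallest wild-type library, as for the elements at 0, the ratios were lower. They were 620.02, 281.8, 243.9 and 182.9 for AT1TE56390, AT1TE36570, AT1TE66380 and AT1TE86360.

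AT1TE39515 stood out among them by its spread within ddcc. It had wild-type counts of 0, 1 and 0 and ddcc counts of 1177, 747 and 305, or 40.1 ± 22.6 CPM, and was called higher with an edgeR adjusted p of 3.03e-05. The lowest ddcc library was still far above the wild-type libraries. Such a spread was rare, since the highest ddcc CPM was more than 3 times the lowest in 2 of the 45 elements called higher and under 1.5 times in 26, with a median of 1.40. The highest value lay in ddcc replicate 1 for 22 of the elements, in replicate 2 for 15 and in replicate 3 for 8, so no library led throughout.

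The elements with 0 counts in all wild-type libraries and the most reads in ddcc were AT1TE40355 and AT1TE43225. AT1TE40355 had 455, 368 and 425 counts in ddcc, which puts it at least 114-fold higher than wild type (adjusted p 3.73e-08 by edgeR). AT1TE43225 had 442, 369 and 331, which puts it at least 105-fold higher than wild type (adjusted p 1.79e-07 by edgeR). AT1TE42875 had 169, 165 and 153, which puts it at least 44.7-fold higher than wild type (adjusted p 5.17e-07 by edgeR). The ddcc libraries of each of these elements were close to one another, and no wild-type library held a read of any. Another pair were near 0 in wild type, AT1TE33490 with 0, 0 and 1 counts against 286, 256 and 222, and AT1TE82600 with 1, 0 and 0 against 228, 176 and 141 (edgeR adjusted p 4.79e-08 and 4.67e-07). The plot of counts per library shows all 12 elements with the largest increase, which all sit at 3 counts or fewer in wild type.

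**Figure D2:**
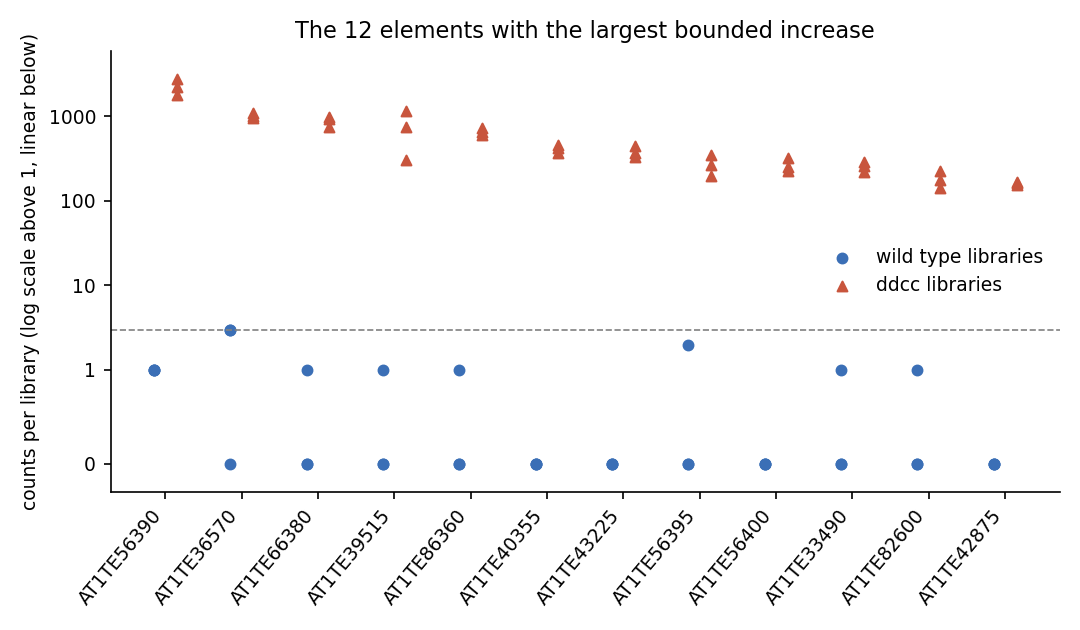
Counts in each wild-type (circles) and ddcc (triangles) library for the 12 elements with the largest bounded increase; the vertical axis is logarithmic above 1 and linear below, and the dashed line marks 3 counts. All wild-type points lie at 0 to 3 counts, and AT1TE39515 has the widest spread in ddcc relative to its level, from 305 to 1177 counts.

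Below the filter, a further set of elements had reads in ddcc alone. In the whole table of 7135, 68 elements (0.953%) had 0 counts in every wild-type library and at least 1 in every ddcc library, and 5 (0.0701%) had the opposite. Over all features of the table the shares were 0.832% and 0.088%, over all TEs 1.26% and 0.0866%, and over the TEs of chromosomes 2 to 5 1.36% and 0.0915%. Of the 68, 22 were tested and are described above. The other 46 had 3 to 43 counts in all, with a median of 10.5. AT1TE44720 had the most of these, with 13, 23 and 7 counts in ddcc, followed by AT1TE52590 with 10, 12 and 16 and AT1TE30195 with 15, 14 and 6. None of the 46 had enough reads to be tested. The 5 elements with reads in every wild-type library and none in ddcc had 4 to 10 counts in all, the most in AT1TE41820 with 2, 6 and 2. Under a looser rule, at least 1 library of a genotype had to hold reads and none of the other genotype. This gave 307 elements for ddcc and 107 for wild type. The share over all features was not computed, so these numbers are a description and no result about chromosome 1 elements. Of the 611 detected elements, 257 had 1 count in total.

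Most elements with reads in both genotypes were not called. At least 10 counts in every library were found for 33 elements (0.463%), against 0.478% of all TEs, 0.482% of those of chromosomes 2 to 5 and 27.8% of all entries. Of the 33, 25 (75.8%) were not called, 7 (21.2%) were higher and 1 was lower. Among all features tested 15.5% were called higher and 12.7% lower. The median log2 fold change of the 33 was 0.13, against −0.0034 over all features tested. The log2 fold changes of the 25 ran from −0.52 to 0.85, above 0 in 14 and below 0 in 11, with a median SE of 0.19. Not passing the test does not show that they were equal.

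AT1TE98440 and AT1TE35415 held the most reads among the elements that were not called. AT1TE98440 had wild-type counts of 722, 588 and 619 and ddcc counts of 758, 682 and 817, or 39.7 ± 3.06 and 40.7 ± 2.58 CPM (log2 ratio 0.038 with SE 0.074 and an adjusted p of 0.740 by edgeR). The sign of this change turned to −0.023 without wild-type replicate 2 and to −0.014 without ddcc replicate 3. AT1TE35415 had wild-type counts of 308, 316 and 306 and ddcc counts of 353, 315 and 342 (log2 ratio −0.071 with SE 0.072 and an adjusted p of 0.498 by edgeR). For both elements the genotypes overlapped on the CPM scale.

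**Figure D3:**
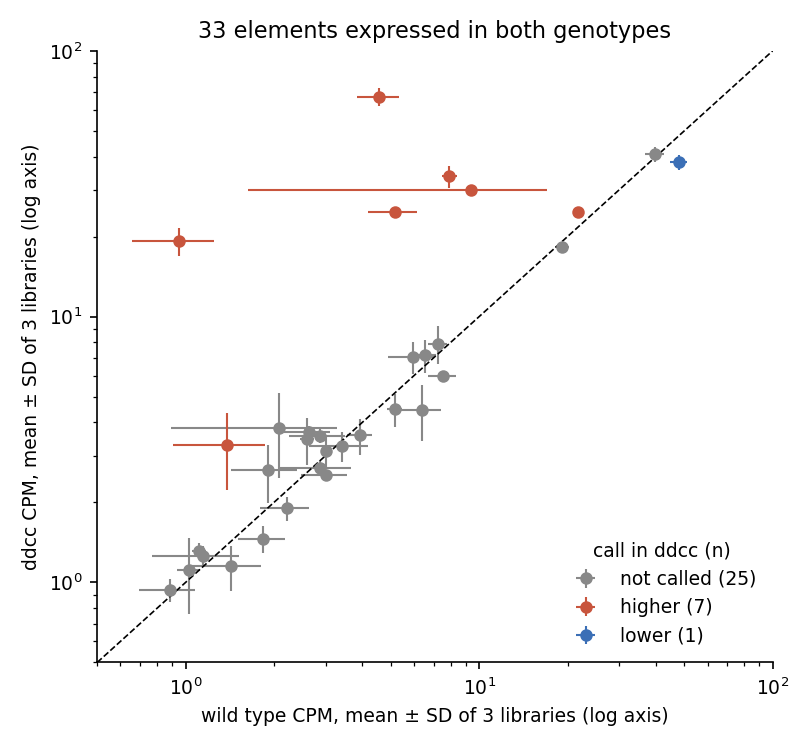
Mean CPM in wild type and in ddcc for the 33 elements with at least 10 counts in every library, with bars for the SD of 3 libraries on each side and a dashed line of equality; both axes are logarithmic. The 25 elements not called lie along the line. On these axes AT1TE71770, at 0.953 and 19.3 CPM, lies farthest above it, followed by AT1TE71775 at 4.57 and 67.2 CPM.

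Several elements already expressed in wild type rose in ddcc. AT1TE71775 went from 69, 88 and 65 counts to 1170, 1230 and 1313, from 4.57 ± 0.746 to 67.2 ± 5.37 CPM, a log2 ratio of 3.88 with SE 0.11 and an adjusted p of 2.56e-09 by edgeR. AT1TE28830 went from 108, 76 and 69 counts to 487, 416 and 469 (log2 ratio 2.25 with SE 0.11 and an adjusted p of 2.67e-07 by edgeR). AT1TE22850 went from 127, 130 and 127 counts to 639, 537 and 692 (log2 ratio 2.09 with SE 0.09 and an adjusted p of 1.08e-07 by edgeR). In these 3 elements the lowest ddcc library exceeded the highest wild-type library several-fold. The call of AT1TE44380 was less even, since wild-type replicate 1 had 312 counts beside 65 and 89 in the others, and the ddcc libraries had 552, 520 and 583. Its log2 fold change was 1.66 (SE 0.37, adjusted p 0.00688 by edgeR), and 2.61 without wild-type replicate 1. AT1TE41800 went from 365, 363 and 325 counts to 460, 435 and 478, a log2 ratio of 0.19 with SE 0.06 and an adjusted p of 0.0459 by edgeR. Its adjusted p rose above 0.05 in 9 of 12 alternative settings, among them DESeq2 (adjusted p 0.193) and each fit that left out a library. The other elements called higher with at least 10 counts throughout were AT1TE71770, described with its neighbours, and AT1TE54100, which went from 26, 29 and 13 counts to 53, 45 and 84 (log2 ratio 1.23 with SE 0.30 and an adjusted p of 0.0112 by edgeR). The 5 elements called higher that lay between both classes had at most 8 counts in a wild-type library, such as AT1TE45510 with 5, 3 and 0 against 137, 106 and 84. These 5 passed the filter in the ddcc libraries alone, so their direction was fixed by their entry into the test.

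Few chromosome 1 elements were called lower in ddcc. AT1TE42900 had the most reads of all chromosome 1 elements in each wild-type library, at least 18.7% of the chromosome's TE counts. It had wild-type counts of 885, 755 and 697 and ddcc counts of 716, 634 and 765, a fall from 48.0 ± 3.18 to 38.2 ± 2.45 CPM (log2 ratio −0.33 with SE 0.07 and an adjusted p of 0.00576 by edgeR). Its raw counts overlapped between the genotypes, while its CPM values did not. AT1TE71790 had wild-type counts of 11, 11 and 12 and ddcc counts of 3, 2 and 3, a log2 ratio of −2.22 with SE 0.41 and an adjusted p of 0.00234 by edgeR. Elements called lower numbered 4 without wild-type replicate 3, and 1 when a log2 fold change of at least 1 was also required.

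AT1TE71790 follows a group of elements that rose, with 2 entries between. AT1TE71765, AT1TE71770 and AT1TE71775 follow one another in the table and together went from wild-type counts of 81, 113 and 80 to 1585, 1677 and 1743 in ddcc, with log2 fold changes of 4.99, 4.33 and 3.88. The entries between, AT1TE71780 and AT1TE71785, had at most 3 counts in any library. AT1TE71790 passed the filter through the wild-type libraries alone, so its direction was fixed by its entry into the test.

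Neighbouring entries were called together in 3 further places. These 4 runs held 11 of the 45 elements called higher, and counting each run once leaves 38. Whether neighbouring entries share reads was not tested. AT1TE56390, AT1TE56395 and AT1TE56400 went from 1, 3 and 1 counts to 3455, 2229 and 2742 in sum. The split of these reads was steady across the ddcc libraries, with 80.3% to 81.1% on AT1TE56390, 8.84% to 10.2% on AT1TE56395 and 9.30% to 10.1% on AT1TE56400. AT1TE45380, AT1TE45385 and AT1TE45390 had no wild-type reads and a sum of 99, 231 and 143 in ddcc, with the highest library at ddcc replicate 2 for each of the 3 elements. On either side, AT1TE45375 with 3, 11 and 9 counts and AT1TE45395 with 4, 6 and 4 were also at 0 counts in wild type but too low to be tested, which makes a stretch of 5 consecutive entries with reads in every ddcc library and in no wild-type library. AT1TE22850 and AT1TE22855 formed the fourth run, with wild-type counts of 132, 133 and 129 and 665, 550 and 713 in ddcc. Here AT1TE22850 held 96.2% to 98.4% of the reads in wild type and 96.1% to 97.6% in ddcc. Some neighbours stayed uncalled together as well, such as AT1TE06650 and AT1TE06655 with log2 fold changes of 0.47 and 0.42.

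Identifier numbers run along the chromosome from 10 to 99450 in steps of 5, with gaps, and served as the measure of position, since coordinates of the elements were not used here. In 10 blocks of 10000 numbers, the elements were unevenly spread, with 1570 in the fifth and 1583 in the sixth block against 229 in the first and 254 in the last. Elements called higher occurred in 8 of the blocks, with 12 in the fifth and 10 in the sixth and none in the first or the last. In proportion to the elements present the share called higher was 0.91% in the third block and 0.87% in the fourth and the eighth. It was 0.76% in the fifth, 0.72% in the second and 0.63% in the sixth, against 0.40% in the ninth and 0.25% in the seventh. Of the 45 called higher 68.9% lay in the fourth to seventh block, as did 66.5% of all 7135 elements and 54.5% of the 33 expressed in both genotypes. With 10 bins of equal numbers of elements the middle 4 bins held 44.4% of the 45, against 40.0% of all elements. With no filter beyond 1 count, the same bins held 59.2% of the 76 elements then called higher.

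**Figure D4:**
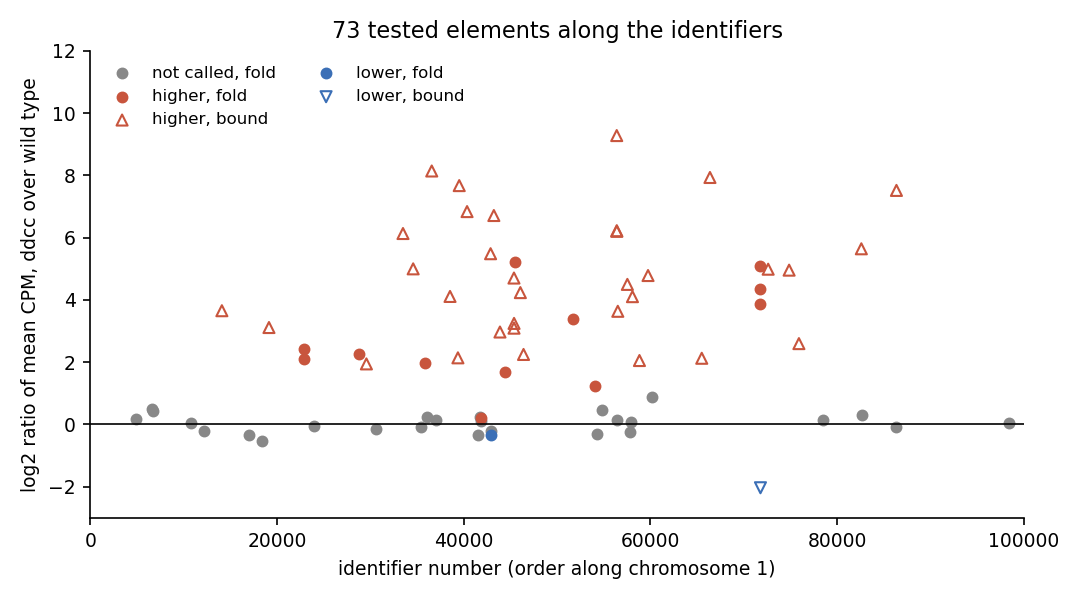
Log2 ratio of mean CPM, ddcc over wild type, for the 73 tested elements against their identifier number. Filled circles are ratios. Open triangles are ratios with the genotype at or under 3 counts set to 3 counts in its smallest library. Elements called higher occur from AT1TE14085 to AT1TE86360, and none of the 5 tested elements before the first and the 1 after the last of these was called.

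The blocks with the lowest and highest identifiers had the smallest ratios of summed levels. Few elements were tested there, 3 in the first block, 6 in the second and 1 in the last. Some blocks with larger ratios had similar numbers, with 5 tested in the third, 3 in the seventh and 4 in the ninth. None was called in the first or the last, while 2 in the second were called higher, 0.72% of its elements. The summed level of the first block was 7.18 ± 0.657 CPM for wild type and 8.82 ± 1.07 CPM for ddcc (ratio 1.23, exact permutation p 0.2). The second block had 16.6 ± 1.48 and 18.1 ± 1.24 CPM (ratio 1.09, exact permutation p 0.3), and the last had 41.8 ± 3.04 and 43.1 ± 2.60 CPM (ratio 1.03, exact permutation p 0.6). In these 3 blocks the libraries of the genotypes overlapped. Without AT1TE98440, which held most reads of the last block, its level was 2.14 and 2.33 CPM, and without AT1TE18410 that of the second block was 10.3 and 13.6 CPM. The genotypes then no longer overlapped in either block (exact permutation p 0.1 in each).

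In the other 7 blocks every ddcc library lay above every wild-type library, each with an exact permutation p of 0.1. The ratio was 3.74 in the third block, 5.33 in the fourth, 1.96 in the fifth, 9.67 in the sixth, 16.1 in the seventh, 7.50 in the eighth and 8.25 in the ninth. Single elements set much of this. Without the element with the most counts of each block the ratios ran from 2.09 in the seventh block, which loses AT1TE66380, to 4.43 in the eighth, which loses AT1TE71775, and the fifth rose to 3.10 without AT1TE42900. The number of elements with reads rose most in the fifth and sixth blocks, which also hold the most entries, 1570 and 1583. It went from 22 in each wild-type library to 76.3 ± 1.53 per ddcc library, and from 33 ± 3.61 to 68.7 ± 2.31. In the fourth block, with 806 entries, it went from 22.7 ± 2.08 to 40.7 ± 2.89. The first block, with 229 entries, had 15 ± 1.0 and 13 ± 1.73. These numbers are not scaled to the entries of a block.

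**Figure D5:**
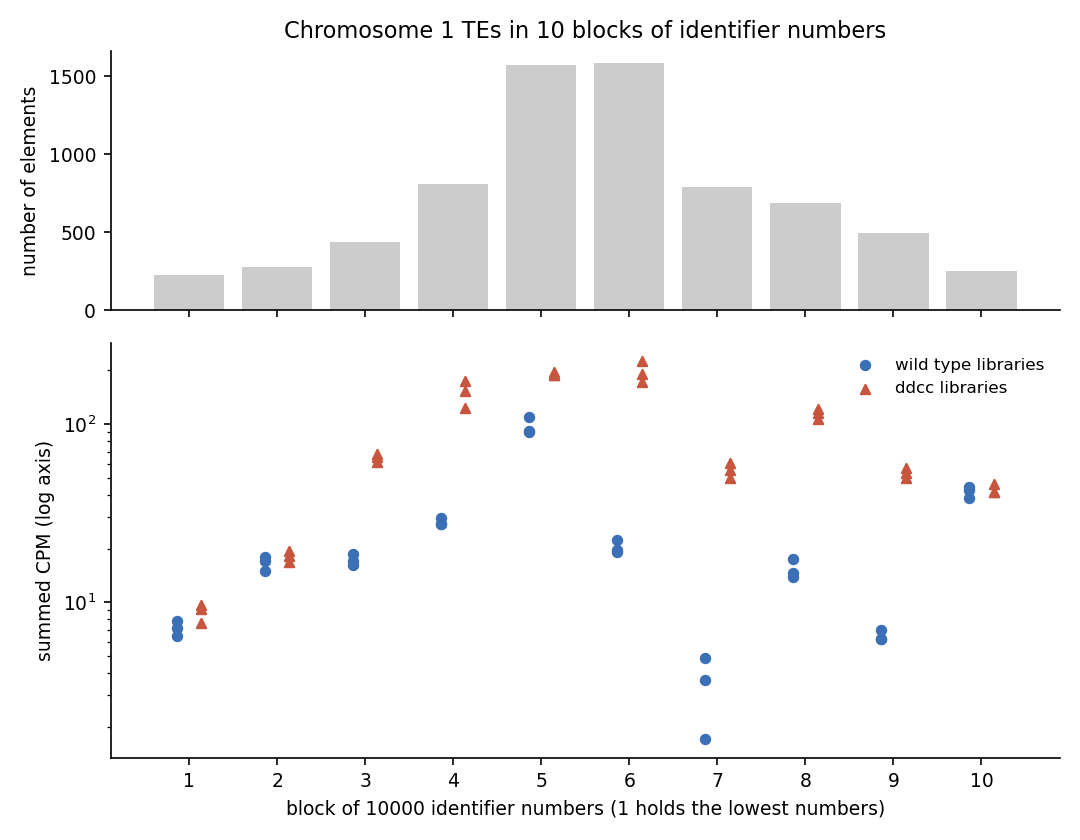
Number of chromosome 1 TE entries (top) and summed CPM in each library on a log axis (bottom) in 10 blocks of 10000 identifier numbers; circles are wild-type and triangles ddcc libraries. The genotypes overlap in the first, second and last block and are separate in the other 7.

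Among 15 genes of the pathways that silence TEs, all were tested and 3 were called higher and 2 lower in ddcc, with a median log2 fold change of 0.02. Over all features tested 15.5% were called higher and 12.7% lower, so these counts lay near the background. NRPD1, which forms the core of RNA polymerase IV at the start of the small RNA pathway, rose from 4.66 ± 0.750 to 10.2 ± 0.930 CPM (log2 ratio 1.13 with SE 0.14 and an adjusted p of 1.74e-04 by edgeR). DCL4, which cuts double-stranded RNA into small RNAs, and MORC6 (DMS11 in RefSeq), an ATPase of heterochromatin silencing, rose by 0.34 each on the log2 scale (edgeR adjusted p 0.00619 and 0.0497). AGO4 and AGO1, which bind small RNAs, fell by 0.31 and 0.20 on the log2 scale (edgeR adjusted p 0.0160 and 0.0310). DDM1 (CHR1 in RefSeq), a chromatin remodeller needed for methylation of heterochromatin, and MET1, the CG methyltransferase, had log2 fold changes of −0.49 and −0.20 and did not pass the test (edgeR adjusted p 0.0740 and 0.0864).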

How the data were processed

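The deposited table holds raw counts of reads, as whole numbers, for genes and TEs in 6 libraries. Per the submitters' processing notes, Trim Galore 0.6.0, cutadapt 1.15, STAR 2.7.0f and the build TAIR10 were used; the counting program, its strand setting and its handling of multi-mapping reads are not given in the sources used here. Reads from near-identical TE copies may have been split or lost, which makes counts of single elements uncertain. Genotype and replicate were taken from the titles, and the number of columns left unmatched was 0. A table of moss batch labels was not used here.

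The members and gene lists were chosen with earlier results of these data known. Features were filtered with filterByExpr (minimum count 10), scaled with TMM factors and compared with edgeR 4.0.16 under R 4.3.3 (quasi-likelihood, no covariate besides genotype), a step checked on simulated data. Benjamini-Hochberg adjustment ran over every tested gene and TE. SE was taken as the size of the log2 ratio over the root of its F value and can be too small at few counts. Ratios with a counting interval use summed counts over summed scaled totals with exact conditional limits. Single values per library were compared by an exact two-sided permutation test. Over chromosome 1 TEs, replicates differed beyond sampling noise (chi-square per degree of freedom 2.34 to 10.01), so none was counted as a repeat deposit of another. Elements named are the 12 called higher with the largest increase (a genotype with 3 counts or fewer set to 3, mean of at least 20 counts, no overlap), those called lower, the 8 with the most CPM among those expressed in both, and runs of neighbours called alike. Elements outside this rule, among them the untested ones, were chosen after their values were seen. Symbols came from the RefSeq TAIR10.1 table, which holds no TE entries. Alternative settings covered scaling, filters, DESeq2 1.42.0, a replicate block, thresholds, bins and leaving out each library; removal of the leading element of each block was added after the data were seen.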

Additional observations from a re-analysis of the deposited data

How the results depend on the processing

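The numbers of elements called higher and lower, 45 and 2, depended most on the filter: they were 76 and 5 with no filter beyond 1 count and 22 and 1 where a mean of 50 counts was required. Calls shared with the main result numbered 44 of 45 for the looser filter. A log2 fold change of at least 1 gave 44 and 1. Scaling alternatives gave 45 to 46 higher and 2 lower, and DESeq2 44 and 2. Leaving out a library gave 46 to 51 higher and 2 to 4 lower. These fits tested 76 to 83 elements instead of 73, and each kept 44 of the 45 called higher. The replicate block gave 44 and 3. Libraries with the same number deviated with correlations of −0.11, −0.05 and 0.03, so the numbers pair nothing by this check, and wild-type replicate 1 correlated best with ddcc replicate 2 (0.11); an exact test that swaps genotypes within numbers cannot go below 0.25. The middle 4 bins held 68.9% of the elements called higher with bins of equal width and 44.4% with equal numbers of elements. Of all chromosome 1 elements the same bins held 66.5% and 40.0%. AT1TE98440 had a log2 fold change of −0.023 to 0.090 when a library was left out, with −0.014 without ddcc replicate 3. After thinning to the smallest total, 171 elements were detected in wild type and 292 in ddcc. Depth limits the result for the 538 detected elements that were not tested. The causes of these shifts were not tested.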
